A study of Rattus norvegicus with 18 samples.

Results

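The transcripts described here are those of Gad1 (ENSRNOG00000000007), Gad2 (ENSRNOG00000018200), Sst (ENSRNOG00000001837) and Pvalb (ENSRNOG00000006471), 4 genes of inhibitory neurons, chosen by gene ID out of the 32662 gene rows of each count table. They were measured by RNA sequencing in the dorsal hippocampus (dHC) and in PL, the prelimbic area of the medial prefrontal cortex, of adult Long-Evans rats, an outbred strain. The labels name no transgene or drug in any group. Naive rats stayed in the home cage. The other rats went through inhibitory avoidance, a task in which a foot shock teaches the animal to keep away from a place, and were killed 1 h or 6 d after training. Each of the 6 groups held 3 pools, each pool combining tissue punches of 5 rats, which makes 18 libraries with 7463875 to 9215695 reads on genes. All 4 genes passed the filter on low counts, as did 14784 genes in all, and no library had fewer than 273 reads on any of the 4. Pools of one group were distinct libraries: in the 18 pairs, counts differed by 1.69 to 5.27 times the chi-square that sampling alone gives.

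Inhibitory neurons signal with GABA, which is made from glutamate by glutamate decarboxylase. Gad1 encodes the GAD67 form of this enzyme, found throughout the cell, and Gad2 encodes GAD65, which is concentrated at nerve endings and associated with synaptic vesicles. Sst encodes the precursor of somatostatin, a peptide released by interneurons that mostly contact dendrites, and Pvalb encodes parvalbumin, a calcium-binding protein of fast-spiking interneurons that mostly contact cell bodies and axon initial segments. In hippocampus and cortex nearly all interneurons carry at least one of the decarboxylases, while Sst and Pvalb mark largely separate classes. In tissue punches, fewer cells of a class and less RNA per cell cannot be told apart. The IDs of other genes are not paired with names in the files, so markers of other cell types were not read and the labelled tissue was not checked against its markers.

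Sequences upstream of the gene are shown for the decarboxylase pair, whose regional patterns differed, and for Sst, the gene with the largest regional difference of the 4. Those of Gad2 and Sst reach the start in RefSeq's promoter table. That of Gad1 holds only the 58 bases farthest upstream in its promoter window, since the rest lies inside the annotated gene, and it ends well before the table's start. They are RefSeq sequences of assembly GRCr8 on the plus strand, 5′ to 3′, at chr3:75777202-75777259 for Gad1, chr17:89671468-89671717 for Gad2 and chr11:90461296-90461565 for Sst. Capitals mark the motifs found. The Sst stretch includes 20 bases past the table's start, so that its whole motif is seen.
Gad1: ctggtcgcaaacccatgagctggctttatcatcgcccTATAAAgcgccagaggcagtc
Gad2: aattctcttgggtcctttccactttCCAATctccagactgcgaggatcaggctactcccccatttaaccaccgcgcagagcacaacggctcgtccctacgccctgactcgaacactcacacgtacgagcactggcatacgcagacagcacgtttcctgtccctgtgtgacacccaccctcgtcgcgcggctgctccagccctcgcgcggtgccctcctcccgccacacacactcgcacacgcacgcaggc
Sst: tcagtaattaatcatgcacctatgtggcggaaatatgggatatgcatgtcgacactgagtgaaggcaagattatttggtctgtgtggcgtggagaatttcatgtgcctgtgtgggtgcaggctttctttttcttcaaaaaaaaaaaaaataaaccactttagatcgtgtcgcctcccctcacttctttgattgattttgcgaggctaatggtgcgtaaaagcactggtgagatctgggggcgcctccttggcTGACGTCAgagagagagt

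The 4 motifs below were searched on both strands of each promoter in the table, from 250 bases before the start to 50 after it, and no matches of different motifs overlapped in these genes. The cAMP response element TGACGTCA is the site bound by the factor CREB and long known from the somatostatin gene. It lay at bases 3 to 10 from the table's start of Sst, and not in the windows of Gad1, Gad2 or Pvalb. Of all 33469 promoters, 1.83% hold this element. Whether transcription of Sst begins at the table's start was not checked. The TATA box TATAAA, held by 14.2% of promoters, was found in the window of Gad1 at bases −213 to −208 from the table's start, and CCAAT, held by 37.5%, in that of Gad2 at bases −225 to −221. The GC box GGGCGG, held by 33.1%, was found in the windows of Gad1, on the strand opposite to the gene and outside the stretch printed, and Pvalb. The 250 bases before the start were rich in G and C in Gad1 (68.4%), Pvalb (62.8%) and Gad2 (62.0%), and less so in Sst (44.4%). A match describes these letters only.

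The first comparison asked how the levels differ between the regions. Sst was about 2.5-fold higher in PL than in dHC in each of the 3 conditions, Pvalb was 1.27-fold higher in PL in naive rats, Gad2 was 1.32-fold higher in dHC in naive rats, and Gad1 did not pass the test in any condition. The test called 3 of the 4 genes in naive rats (1 for dHC, 2 for PL), 3 at 1 h and 2 at 6 d. It called 46.3% of all 14784 genes in naive rats (22.9% for dHC, 23.4% for PL), 47.9% at 1 h and 45.8% at 6 d, so calls between these regions are common. The pools of the regions did not overlap for 3, 3 and 2 of the 4 genes, as for 54.3%, 57.5% and 50.8% of all genes. A call means an adjusted p under 0.05 in edgeR's quasi-likelihood test, adjusted by Benjamini-Hochberg over all genes tested. The test weighs a difference against the spread between pools, estimated over all groups in the fit and with information shared across genes. Levels are in CPM, the reads of a gene relative to all reads on genes of its library, with TMM scaling of the library sizes. They are compared between libraries for 1 gene at a time, since the lengths of the gene models were not used here.

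**Figure D1:**
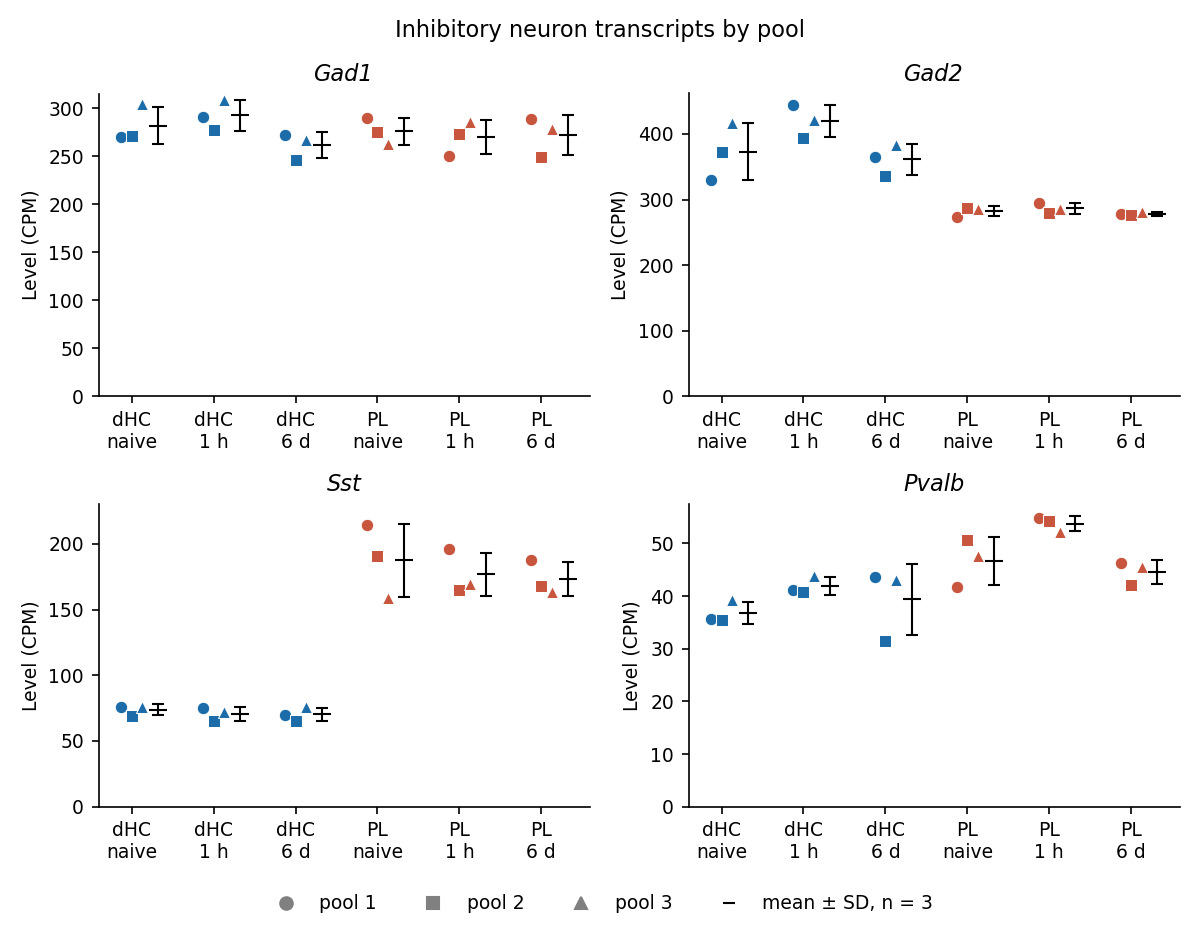
Level of each gene in CPM (vertical axis, from 0) in the 3 pools of each group (points, shaped by pool number, dHC in blue and PL in red), with the mean ± SD beside them. For Sst the 9 PL pools lie between 159 and 214 CPM and the 9 dHC pools between 65.0 and 76.2 CPM, while for Gad1 the ranges overlap, 246 to 309 CPM in dHC and 249 to 290.0 CPM in PL.

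Sst, the somatostatin precursor, stood at 76.0, 69.1 and 76.2 CPM in the naive dHC pools and at 214, 190.5 and 159 CPM in the naive PL pools. Every PL pool was above every dHC pool. The means were 73.8 ± 4.06 CPM in dHC and 188 ± 27.8 CPM in PL (SD, n = 3). The log2 difference, dHC minus PL, was −1.35 (SE 0.09, edgeR adjusted p = 9.89e-13), which is 2.54-fold higher in PL with a 95% interval of 2.24 to 2.89. An absolute log2 difference larger than this was seen in 7.28% of all genes tested. After training the regions remained apart by the same order of size. At 1 h the dHC pools had 74.7, 65.0 and 71.8 CPM and the PL pools 196, 165 and 169.5 CPM, and at 6 d the dHC pools had 69.6, 65.5 and 75.8 CPM and the PL pools 188, 168 and 163 CPM. The log2 differences were −1.33 (SE 0.09, edgeR adjusted p = 1.40e-12) and −1.30 (SE 0.09, edgeR adjusted p = 2.49e-12).

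Gad2, the vesicle-associated decarboxylase, went the other way. Its naive dHC pools held 331, 372 and 417 CPM and its naive PL pools 274, 287 and 286 CPM. The lowest dHC pool was above the highest PL pool. The log2 difference, dHC minus PL, was 0.40 (SE 0.07, edgeR adjusted p = 1.28e-05), a fold of 1.32 with a 95% interval of 1.20 to 1.45, and 37.6% of all genes differed by more. At 1 h it was 0.55 (SE 0.07, edgeR adjusted p = 8.42e-08) and at 6 d 0.38 (SE 0.07, edgeR adjusted p = 3.54e-05). In the order of its 6 group means, the gap between the lowest dHC group, 6 d with 361 ± 23.8 CPM, and the highest PL group, 1 h with 286 ± 7.93 CPM (SD, n = 3), was larger than the SD of either.

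Gad1, the decarboxylase found throughout the cell, stood at 270.1, 271 and 304 CPM in naive dHC and at 290.0, 275 and 262 CPM in naive PL. The pools of both regions overlapped in every condition. The log2 difference, dHC minus PL, was 0.03 in naive rats (95% interval −0.11 to 0.17, edgeR adjusted p = 0.743), 0.12 at 1 h (−0.02 to 0.25, edgeR adjusted p = 0.162) and −0.06 at 6 d (−0.20 to 0.08, edgeR adjusted p = 0.521). As folds of dHC over PL, the 3 intervals together ran from 0.873 to 1.19. The 6 group means fell in the order dHC 1 h, dHC naive, PL naive, PL 6 d, PL 1 h and dHC 6 d, from 292 to 262 CPM, and no neighbours in this order were farther apart than the larger of their SDs.

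Pvalb, the calcium-binding protein of fast-spiking cells, was the least abundant of the 4 in reads, with 273 to 399 per library in dHC and 322 to 483 in PL. The naive dHC pools held 35.6, 35.5 and 39.3 CPM and the naive PL pools 41.7, 50.6 and 47.6 CPM, without overlap. The log2 difference, dHC minus PL, was −0.34 (SE 0.10, edgeR adjusted p = 0.00512), which is 1.27-fold higher in PL with a 95% interval of 1.10 to 1.46. This call was lost without naive PL pool 2, at −0.26 (edgeR adjusted p = 0.0522, in a range of 0.00128 to 0.0522 over 24 alternatives). At 1 h the difference was −0.36 (SE 0.09, edgeR adjusted p = 0.00246). At 6 d it was −0.19 and did not pass (SE 0.10, edgeR adjusted p = 0.125). There, dHC pool 2 stood at 31.5 CPM beside 43.6 and 43.0 CPM in pools 1 and 3, and without it the 6 d difference was −0.04 (edgeR adjusted p = 0.769).

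**Figure D2:**
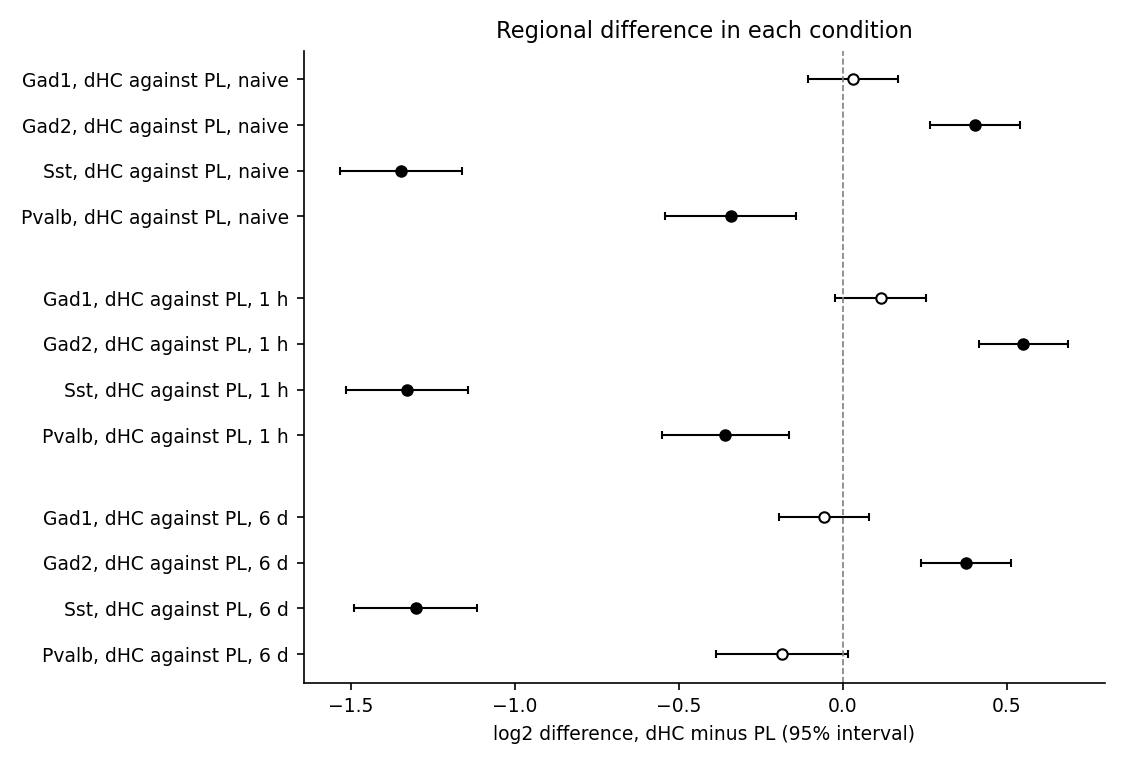
Difference between the regions for each gene and condition, as log2 of dHC minus PL (horizontal axis), with the 95% interval. Filled points passed the test. Sst lies near −1.3 in all 3 conditions, Gad2 between 0.38 and 0.55, Pvalb between −0.36 and −0.19, and the interval of Gad1 spans 0 in each condition.

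Ratios of the read counts of 2 genes in the same library do not depend on how libraries are scaled. They are read between libraries only, since gene length enters each ratio. The ratio of Sst to Pvalb reads had a median of 1.82 in the 9 dHC pools (1.60 to 2.13) and of 3.59 in the 9 PL pools (3.05 to 5.14). The ratio of Sst to Gad2 reads had a median of 0.186 in dHC (0.165 to 0.230) and of 0.610 in PL (0.554 to 0.783), a 3.39-fold difference of the mean log2 ratios and the largest of the 4 ratios taken. For Pvalb to Gad2 the medians were 0.103 in dHC (0.0927 to 0.119) and 0.167 in PL (0.152 to 0.194), 1.67-fold apart. For Gad1 to Gad2 they were 0.730 in dHC (0.655 to 0.817) and 0.979 in PL (0.850 to 1.06), 1.33-fold apart. All 4 ratios were higher in every PL pool than in every dHC pool. Each gave p = 0.00025 in a two-sided exact permutation test of the region labels within conditions, the smallest that its 8000 assignments can give (adjusted p = 0.00025 over the 4 ratios). With the naive pools alone, 3 against 3, each ratio gave p = 0.1, again the smallest this exact test allows. The ratios share members, so they are not independent of one another or of the levels above. Since 50.8% to 57.5% of all genes did not overlap between the regions in a condition, other ratios may separate them likewise. How many do was not counted.

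**Figure D3:**
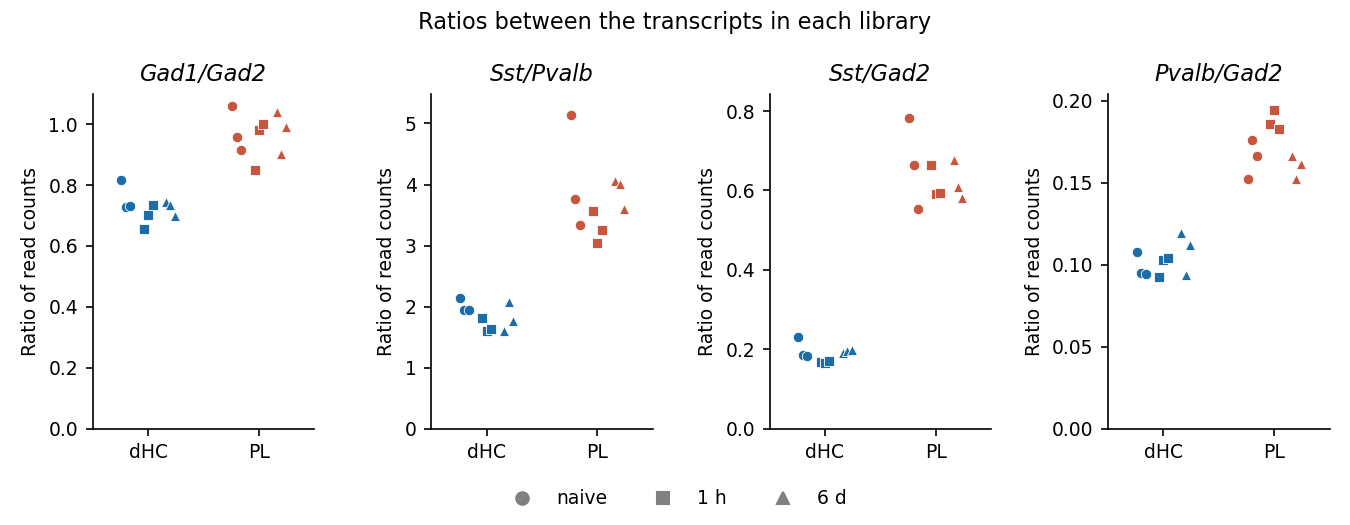
Ratio of read counts between 2 genes (vertical axis, from 0) in each of the 18 libraries, by region (dHC blue, PL red) and condition (shape). In each panel the 9 PL libraries lie above the 9 dHC libraries, with the widest gap for Sst to Gad2.

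The second comparison followed the genes after training. None of the 4 passed the test in any of the 6 comparisons within a region, in edgeR or in DESeq2. For 1 h against naive the same test called 0.224% of all genes in dHC and 1.44% in PL, for 6 d against naive 0% in both regions, and for 6 d against 1 h 1.1% in dHC and 2.21% in PL. At an unadjusted p under 0.05 were 1 of the 4 genes in dHC at 1 h, 1 in PL at 1 h, 0 at 6 d against naive in either region, 2 in dHC and 1 in PL for 6 d against 1 h. Among all genes tested these shares were 10.4% and 15% at 1 h, 5.62% and 3.47% at 6 d, and 14.3% and 15.7% for 6 d against 1 h. The median log2 difference of the 4 genes ran from −0.13 for 6 d against 1 h in dHC to 0.11 for 1 h against naive in dHC, beside medians of all genes tested of 0.0021 and −0.0023. Over the 24 gene and comparison pairs the log2 difference lay between −0.27 and 0.21, and the outermost bounds of the 95% intervals were −0.44 and 0.40. The comparisons share groups: 1 h and 6 d were set against the same naive pools, and 6 d against 1 h uses the pools of both.

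**Figure D4:**
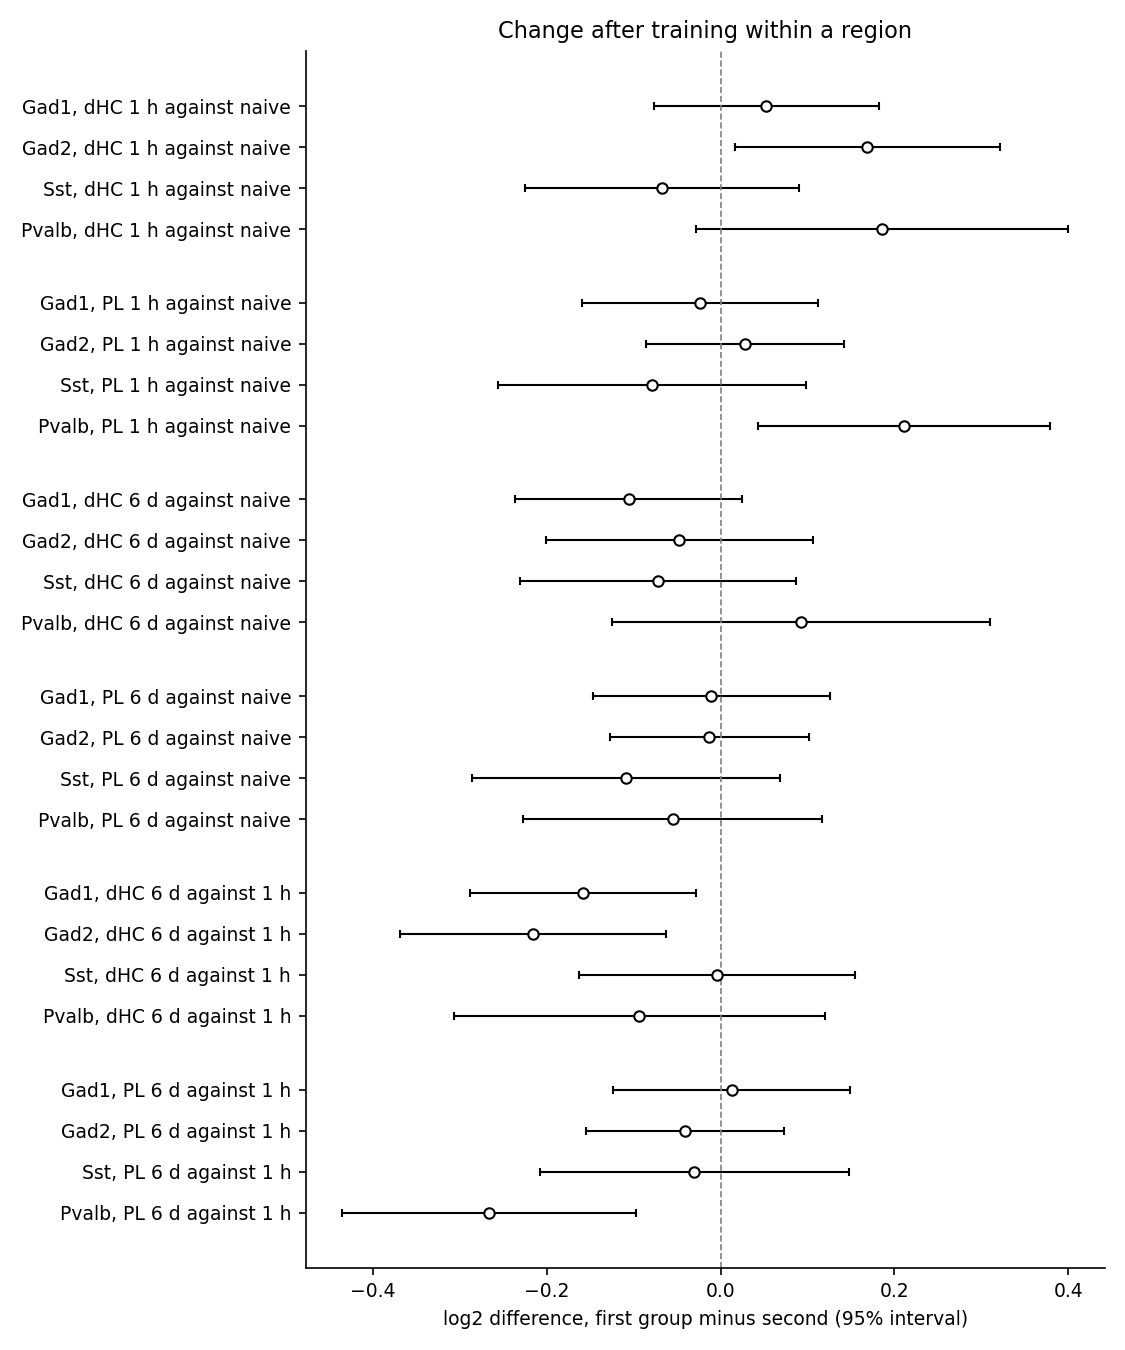
Difference within a region for each gene, as log2 of the first group minus the second (horizontal axis), with the 95% interval; open points did not pass the test, and none of the 24 did. The point farthest from 0 is Pvalb in PL for 6 d against 1 h, at −0.27.

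Pvalb had the largest differences at 1 h. In dHC the 1 h pools held 41.1, 40.7 and 43.9 CPM, all above the naive pools, and in PL they held 54.8, 54.3 and 52.1 CPM, again all above the naive pools. The log2 difference against naive was 0.19 in dHC (SE 0.10, edgeR adjusted p = 0.544) and 0.21 in PL (SE 0.08, edgeR adjusted p = 0.223), and neither passed. Groups that did not overlap, with 1 h above naive, were found for 9.37% of all genes in dHC and 9.74% in PL. At 6 d the PL pools held 46.3, 42.0 and 45.5 CPM, all below the 1 h pools, as were 10.1% of all genes. That log2 difference, 6 d minus 1 h, was −0.27 (SE 0.08, edgeR adjusted p = 0.0932), and its adjusted p ran from 0.0522 to 0.245 over 16 alternatives. Against naive, the 6 d differences of Pvalb were 0.09 in dHC (SE 0.10, edgeR adjusted p = 0.946) and −0.06 in PL (SE 0.08, edgeR adjusted p = 0.999).

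The 9 pools of Gad2 covered a 1.34-fold range in dHC and a 1.08-fold range in PL. In dHC its 1 h pools held 444, 394 and 421 CPM and its 6 d pools 365, 336 and 383 CPM, without overlap between these groups, while the naive pools covered 331 to 417 CPM and overlapped both. The log2 difference of 1 h against naive was 0.17 (SE 0.07, edgeR adjusted p = 0.421), and that of 6 d against 1 h was −0.22 (SE 0.07, edgeR adjusted p = 0.156). The latter passed when low genes were kept in the fit (edgeR adjusted p = 0.00834, in a range of 0.00834 to 0.446 over 16 alternatives). That fit called 623 genes in all, against 158 in the main fit, and its log2 difference of Gad2 was again −0.22. Without overlap between 6 d and 1 h, and lower at 6 d, were 9.52% of all dHC genes. In PL the 1 h pools held 295, 279 and 285 CPM and the 6 d pools 278, 276 and 281 CPM. There the log2 difference against naive was 0.03 at 1 h (95% interval −0.09 to 0.14) and −0.01 at 6 d (−0.13 to 0.10).

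Gad1 in dHC stood at 291, 277 and 309 CPM at 1 h and at 272, 246 and 267 CPM at 6 d, so that the 6 d pools lay below the 1 h pools here too. The log2 difference of 6 d against 1 h was −0.16 (SE 0.06, edgeR adjusted p = 0.231). Against naive it was 0.05 at 1 h (95% interval −0.08 to 0.18) and −0.11 at 6 d (−0.24 to 0.02). In PL the pools held 251, 273 and 285 CPM at 1 h and 289, 249 and 279 CPM at 6 d, overlapping the naive pools and each other, with log2 differences against naive of −0.02 (−0.16 to 0.11) and −0.01 (−0.15 to 0.13).

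Sst passed the test at neither time. Against naive its log2 difference was −0.07 in dHC at 1 h (95% interval −0.23 to 0.09), −0.08 in PL at 1 h (−0.26 to 0.10), −0.07 in dHC at 6 d (−0.23 to 0.09) and −0.11 in PL at 6 d (−0.29 to 0.07). As folds of the trained over the naive level, the 4 intervals together ran from 0.820 to 1.07. The pools of the trained and naive groups overlapped in all 4.

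Whether a change differed between the regions was tested directly, as the change in dHC minus the change in PL. None of the 4 genes passed at 1 h or at 6 d, in edgeR or DESeq2, and none had an unadjusted edgeR p under 0.05. The test called 0.0947% of all genes at 1 h and 0% at 6 d, and 7.08% and 3.77% were at an unadjusted p under 0.05. At 1 h the difference was 0.15 for Gad2 (95% interval −0.04 to 0.34), 0.08 for Gad1 (−0.11 to 0.28), 0.02 for Sst (−0.24 to 0.28) and −0.02 for Pvalb (−0.30 to 0.26). At 6 d it was 0.16 for Pvalb (−0.13 to 0.44), 0.04 for Sst (−0.22 to 0.31), −0.03 for Gad2 (−0.22 to 0.17) and −0.09 for Gad1 (−0.28 to 0.11).

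After the values of Pvalb had been seen, the changes were also averaged over both regions in the fit of all 18 libraries. For 1 h against naive the mean log2 difference of Pvalb was 0.20 (95% interval 0.06 to 0.33, edgeR adjusted p = 0.126), a fold of 1.15. It did not pass, nor in any of 18 fits with one library left out (adjusted p 0.0540 to 0.295). The same fit called 2.46% of 14784 genes. For 6 d against 1 h the mean log2 difference was −0.18 for Pvalb (edgeR adjusted p = 0.124) and −0.13 for Gad2 (edgeR adjusted p = 0.112), with 4.93% of all genes called. The regions were not alike for Pvalb: 2 of 3 dHC pools at 6 d stood above the 1 h mean, and 0 of 3 in PL. Without dHC 6 d pool 2 its mean difference was −0.11 (edgeR adjusted p = 0.375). For Sst the mean log2 difference of 6 d against 1 h was −0.02 (95% interval −0.15 to 0.11) and for Gad1 −0.07 (−0.17 to 0.02). None of the 4 genes passed in any of these averages. The averages use the same pools as the values above, so they add no separate support.

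The third question was whether the 4 genes vary together between pools. The spread within a group set how far this can be seen. In the 3 PL groups the coefficient of variation of Gad2 was 2.69%, 2.77% and 0.976% (naive, 1 h, 6 d), beside about 2.0% that counting alone gives at its 2114 to 2599 reads. In dHC it was 11.5%, 5.92% and 6.58%. For Gad1 it ran from 5.04% to 7.70% over the 6 groups, with 1.95% to 2.15% from counting. For Sst it ran from 5.50% to 14.8%, with 2.47% to 4.15% from counting, and was highest in naive PL. For Pvalb it ran from 2.66% to 17.3%, with 4.62% to 5.65% from counting, and was highest in dHC at 6 d. Among 14318 genes tested in PL, 2.64% had a lower edgeR dispersion than Gad2, against 49.3% of the 14305 tested in dHC.

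Correlations were taken over the 9 pools of each region on the log2 CPM scale, for 6 gene pairs in each. None of the 12 passed after adjustment, and 2 had an unadjusted p under 0.05. In dHC, Gad1 and Gad2 were high or low in the same pools, with Pearson's r = 0.82 (exact permutation p = 0.00827, adjusted p = 0.0992) and Spearman's rho = 0.80 (exact permutation p = 0.0138, adjusted p = 0.153). Without the 2 pools farthest from the median of Gad1, naive pool 3 and 1 h pool 3, r was 0.79. On deviations from the group means it was 0.77 (exact permutation within groups, p = 0.0741, adjusted p = 0.25). In PL the same pair had r = −0.41 (exact permutation p = 0.267, adjusted p = 0.533) and rho = −0.38 (exact permutation p = 0.313, adjusted p = 0.661). Without both PL 1 h pool 1 and 6 d pool 2, r was −0.64. It rested on single pools, with −0.067 without PL 1 h pool 1 alone and −0.83 without PL 6 d pool 2 alone. The range of Gad2 levels in PL was only 1.08-fold wide, near its counting error. The difference between these regions in r was not tested.

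In PL, Gad2 and Pvalb had r = 0.74 (exact permutation p = 0.0217, adjusted p = 0.130) and rho = 0.75 (exact permutation p = 0.0255, adjusted p = 0.153). This fell to r = 0.50 without PL naive pool 1 and 1 h pool 1, the pools farthest from the median of Gad2, so it rests in part on them. Without PL 1 h pool 2 it was 0.93 and passed (exact permutation, adjusted p = 0.0104), but without any other single PL pool it did not pass. The Gad2 levels in PL covered only a 1.08-fold range, near the counting error. How far counting error enters this r was not tested. With all 9 PL pools, on deviations from the group means, r was 0.69 and did not pass (exact permutation within groups, p = 0.0833, adjusted p = 0.25). In dHC the pair had r = 0.65 (exact permutation p = 0.0583, adjusted p = 0.217) and rho = 0.52 (exact permutation p = 0.162, adjusted p = 0.485), with r = 0.66 without naive pool 1 and 1 h pool 1. Gad1 and Pvalb had r = 0.63 in dHC (exact permutation p = 0.0722, adjusted p = 0.217) and −0.13 in PL (exact permutation p = 0.735, adjusted p = 0.802). On deviations from the group means the dHC value was 0.78 (exact permutation within groups, p = 0.00926, adjusted p = 0.111), and without dHC 6 d pool 2 the r of the levels was 0.31. For Sst and Pvalb, the 2 class markers, r was 0.32 in dHC and −0.14 in PL. Over the 6 pairs r ran from 0.28 to 0.82 in dHC and from −0.41 to 0.74 in PL. These signs rest in part on single pools. Without dHC 6 d pool 2, r in dHC was 0.20 for Gad1 and Sst, 0.039 for Gad2 and Sst and −0.075 for Sst and Pvalb. Without PL naive pool 1, r in PL was 0.45 for Gad2 and Sst, 0.33 for Sst and Pvalb and 0.11 for Gad1 and Pvalb.

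**Figure D5:**
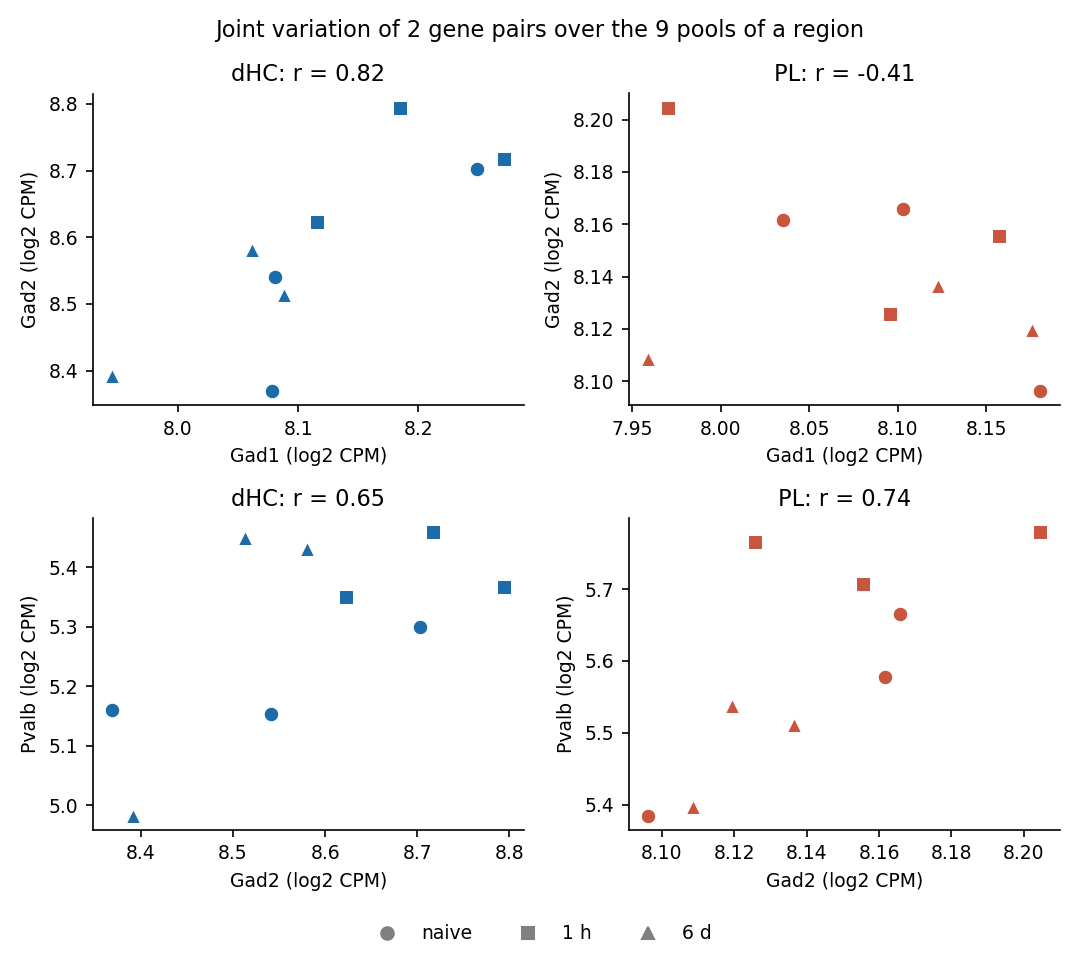
Levels in log2 CPM of Gad1 against Gad2 (top) and of Gad2 against Pvalb (bottom) in the 9 pools of dHC (left, blue) and PL (right, red), shaped by condition. Axis ranges differ between panels, and the Gad2 axis in PL spans far less than in dHC; r is 0.82 and −0.41 for the top pair and 0.65 and 0.74 for the bottom pair.

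The genes most like each of the 4 were ranked by Pearson's r over the 18 libraries after each region's mean was taken away, among 14301 other genes with a mean of at least 1 CPM. The ranking is a description, as all values share library depth. Gad2 came at place 395 for Gad1 (r = 0.55), and Sst and Pvalb at places 2046 and 2347. For Gad2, the nearest of the other members was Pvalb at place 403 (r = 0.59), followed by Gad1 at place 537. For Sst the nearest member was Gad1 at place 2667 (r = 0.33), and for Pvalb it was Gad2 at place 570. Over the 9 libraries of a single region the places were different. For Gad1, Gad2 came at place 257 in dHC (r = 0.82) and at place 12024 in PL (r = −0.41). For Gad2, Pvalb came at place 982 in dHC (r = 0.65) and at place 218 in PL (r = 0.74). Many other genes thus followed each of the 4 more closely than its fellow members did. The nearest gene to Gad1 was ENSRNOG00000013017 (r = 0.92) and the nearest to Sst was ENSRNOG00000001454 (r = 0.90), neither paired with a name in the files.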

How the data were processed

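RNA of the punches was isolated per pool of 5 rats, and polyadenylated RNA libraries were made from 200 ng with a strand-marking kit, 12 cycles of PCR and paired reads of 150 nt, per the labels' protocols. The authors deposited raw counts, 1 whole number for each Ensembl gene ID and library, without normalization. The submitters' processing notes name Rnor_6.0, Picard 1.126, bedtools 2.17.0 and DESeq2, without roles. For aligner, counting program, annotation and strand setting, nothing is given in the sources used here, so reads of genes that overlap or lie antisense to the 4 could not be told apart.

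Each table ends with 5 rows that name no gene, which were left out (10.1% to 13.6% of all reads outside gene models, 42.0% to 51.8% not aligned). Counts were tested in R 4.3.3 with edgeR 4.0.16 (glmQLFTest, two-sided, TMM, filterByExpr) over all genes. Comparisons within a region used its 9 libraries, and those between regions all 18. CPM use TMM factors over 18 libraries, and log2 CPM a prior count of 1. SEs come from the F statistic, and intervals are at 95%. PCR copies are not told apart, so counting errors cover counting only. DESeq2 1.42.0 and the other alternatives are given at the end. Scripts were tested on simulated data. Ratios and correlations were computed in Python 3.11.15 with exact permutation tests.

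The labels do not say what a replicate number shared by pools of different groups stands for. They call the pools of a group independent, and do not say whether dHC and PL pools come from the same rats. The members, lists and tests were chosen with earlier results of these data known. All 4 members are described in every comparison; the nearest genes by correlation were limited to 2 IDs. The 4 further gene lists and the cell type markers were not tested, since the reference table matched 0 of 32662 IDs.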

Additional observations from a re-analysis of the deposited data

How the results depend on the processing

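Of the counts of genes passing each test, the regional ones stayed at 3, 3 and 2 of 4 (naive, 1 h, 6 d) in the other normalizations and in DESeq2, and between 2 and 3 with any library left out. For 6 d against 1 h in dHC the count went from 0 to 1 (Gad2) with low genes kept, where 623 genes were called in all against 158. It went likewise with the replicate block (edgeR adjusted p = 0.0467 for Gad2, log2 difference −0.22, 549 genes called in all). The block changed no other call of the 4 genes. Same-numbered pools of a region correlated in their deviations from group means by −0.0567 to 0.190, not all over 0.1, and same-numbered dHC and PL pools of a condition by −0.110 to 0.0385, so the numbers were not taken as pairs. All genes called moved with the settings as well, in dHC from 14 to 275 at 1 h and from 18 to 623 for 6 d against 1 h, in PL from 87 to 574 and from 149 to 675, at 6 d against naive up to 31 in dHC and 8 in PL, and in the regional difference of the change from 6 to 117 at 1 h and up to 12 at 6 d. The causes were not tested. The number of ratios passing went from 4 to 0 with naive pools alone, where the design cannot pass. The number of correlations passing was 0 to 2 with a pool left out, the 2 without PL 1 h pool 2: Gad2 with Pvalb in PL (r = 0.93, exact permutation, adjusted p = 0.0104) and Gad1 with Gad2 in dHC (adjusted p = 0.0496). The latter kept its r and its own p, and its adjusted p moved only because the p of the PL pair entered the adjustment.

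Differences near 0 changed sign without one library. Their log2 ranges over libraries left out were, for Gad1, −0.070 to 0.027 (PL 1 h against naive), −0.050 to 0.044 (PL 6 d against naive), −0.039 to 0.070 (PL 6 d against 1 h) and −0.017 to 0.079 (naive regions), and for Gad2, −0.0018 to 0.045 (PL 1 h), −0.041 to 0.00083 (PL 6 d), −0.13 to 0.039 (dHC 6 d) and −0.11 to 0.056 (regional difference at 6 d). For Sst they were −0.18 to 0.018 (PL 1 h), −0.086 to 0.048 (PL 6 d against 1 h), −0.064 to 0.044 (dHC 6 d against 1 h), −0.093 to 0.12 (regional difference at 1 h) and −0.063 to 0.15 (at 6 d). For Pvalb they were −0.14 to 0.010 (PL 6 d), −0.18 to 0.047 (dHC 6 d against 1 h) and −0.094 to 0.051 (regional difference at 1 h). With library totals only, the regional difference at 1 h was −0.0046 for Sst, and PL 6 d against naive was 0.0072 for Gad1 and 0.0054 for Gad2. Correlations that changed sign ran from −0.016 to 0.57 (Gad1 with Sst, PL; −0.066 with library totals), −0.59 to 0.17 (Gad1 with Pvalb, PL), −0.44 to 0.45 (Gad2 with Sst, PL), −0.37 to 0.33 (Sst with Pvalb, PL) and −0.075 to 0.49 (Sst with Pvalb, dHC). None of these passed a test. For Pvalb, the least read of the 4, counting alone gives 4.62% to 5.65% error per pool, which limits what 3 pools a group can show.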
